A study of Homo sapiens and Mus musculus with 4 samples.

Results

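The regions described here are strong TEAD-bound sites of mouse YAP-ERMS cells that stand alone or with a few other sites, away from large groups of sites. They were chosen from the deposited YAP-ERMS peak list (mm9) on the values themselves: a peak score above 1000, a place on chromosomes 1 to 19 or X, and no membership of a cluster, a chain of 5 or more peaks joined by gaps of at most 12.5 kb. The rule found 2565 peaks of 47033 in the list, and of 46948 on those 20 chromosomes. They are called outlying high-score peaks below, and the 901 peaks above 1000 that do lie in clusters are called clustered high-score peaks.

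The study holds 4 ChIP-seq libraries, each the only one of its group. Both YAP-ERMS libraries, a TEAD immunoprecipitate and an input, came from mouse cells derived from tumours driven by YAP, with Myf5-Cre or Pax7-CreER as the driver line, and the labels do not say which of these drivers applies to the libraries or how many tumours they stand for. The other pair, TEAD and IgG, came from the human cell line RD, an embryonal rhabdomyosarcoma line. Myf5-Cre acts in the embryonic muscle lineage, and Pax7-CreER acts in muscle satellite cells once an inducer is given. Peaks carry no expression values, so the muscle identity of the cells could not be checked against marker genes.

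TEAD proteins are transcription factors that bind the M-CAT element in DNA and have little activity alone. Their co-activators YAP1 and TAZ do not bind DNA themselves and are held out of the nucleus when the Hippo kinases are active. In many cells most TEAD sites lie in distal enhancers, often beside sites of AP-1 factors, and in muscle M-CAT elements were first known from promoters of contractile genes. The gap of 12.5 kb is the distance often used to join neighbouring enhancers into one large unit. Genes, promoters, motifs and base sequences at these peaks were not analysed here, because no mm9 genome or annotation was used, so each peak is identified by its position.

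There was 1 TEAD library and no replicate, so no difference below was tested against a replicate error. Intervals are 95% intervals, Wilson for shares and from order statistics for medians. They reflect counting error alone and take each peak as independent, although neighbouring peaks are not. How deeply the libraries were sequenced is unknown here.

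Most strong sites lay outside clusters, and so did most peaks of any score. Of the 3466 peaks above 1000 on the 20 chromosomes, 2565 lay outside clusters, or 74.0% (72.5% to 75.4%). Of all 46948 peaks compared, 38679 lay outside clusters, so this majority is no trait of the strong sites. Peaks above 1000 were 7.38% of all peaks compared and 6.63% of the 38679 peaks outside clusters, so the outlying high-score peaks were 5.46% of all peaks compared. They covered 4.65 Mb, which is 8.24% of the covered length. These counts follow from the rule and are given as a description. In the RD list the same rule kept 1046 of 1237 high-score peaks, or 84.6% (82.4% to 86.5%), in another genome, against another control and at unknown depth. The share of all RD peaks outside clusters was not computed.

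The deposited score is taken here as the negative log10 of a peak's p-value times 10, and it depends on depth and control. The outlying high-score peaks had a median score of 1390 (interquartile range 1163 to 1777), and the clustered ones 1465 (1180 to 1982). A score of 2000 or more was held by 449 outlying peaks, or 17.5% (16.1% to 19.02%), and by 219 clustered peaks, or 24.3% (21.6% to 27.2%). Most outlying peaks sat near the limit, with 1531 of them, or 59.7%, between 1000 and 1500.

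The limit of 1000 parted peaks that were nearly alike. The lowest outlying high-score peaks were chr8:95370246-95372205 with a score of 1000.20, chr11:31124741-31126229 with 1000.21, chr3:28232193-28233546 with 1000.36, chr6:21843916-21845319 with 1000.61 and chr5:150371218-150372383 with 1001.26. Just below the limit and also outside clusters were chr10:13296274-13297555 with 999.91, chr16:92348759-92350227 with 999.89, chr15:53372317-53374956 with 999.82, chr15:63986928-63988029 with 999.76 and chr11:4536302-4538345 with 999.7. Outside clusters, 60 peaks scored above 1000 and up to 1010, with a median width of 1436 bp, and 57 scored from 990 to 1000, with a median width of 1534 bp. The limit on gaps was as close: 2616 peaks met the rule with gaps of at most 12000 bp, and 2510 with gaps of at most 13000 bp.

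Among the highest scores, the value of exactly 3100 occurred 62 times in the outlying peaks and 35 times in the clustered ones, while 16 outlying peaks scored above it. These 62 peaks were wide, with a median of 2687 bp (2350 to 3053 bp). The 13 outlying peaks between 3000 and 3100 had a median width of 1969 bp (1524 to 2760 bp), and the 16 above 3100 had 1803 bp (1613 to 2620 bp). The outlying peaks at exactly 3100 were thus wider at the median than those scored just below and just above them, although both of those intervals overlap that of the tied peaks. Among clustered peaks the order below the tie was the other way. The 35 tied ones had a median of 2598 bp, and the 8 between 3000 and 3100 had 3101 bp (1381 to 5211 bp). The 6 clustered peaks above 3100 had 1595 bp. The smallest positive number in double precision corresponds to a score of 3233, and the highest score in the list was 3218. What the tied value stands for is not given in the sources used here, so the order of peaks at 3100 and above is not read as an order of strength. The 3 widest tied peaks, chosen after their values were seen, were chr19:5014444-5019174 at 4731 bp, chr19:9054999-9059684 at 4686 bp and chr2:90898397-90902856 at 4460 bp.

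**Figure D1:**
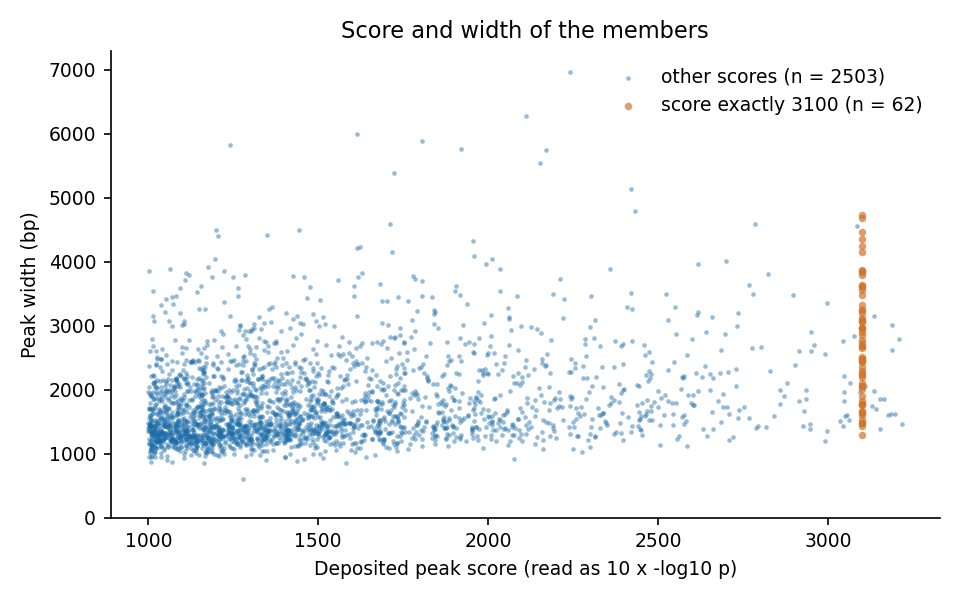
Each point is 1 of the 2565 outlying high-score peaks, with its deposited score on the horizontal axis and its width in bp on the vertical axis; orange points score exactly 3100. Widths spread from 603 to 6972 bp, and the 62 tied peaks reach from 1287 to 4731 bp.

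The 10 outlying peaks with the highest scores other than 3100 differed in their surroundings, which the ranking does not show. Of these, 5 had no other peak within 12.5 kb, 2 lay in chains of 2 and 3 in chains of 4. Their 20 adjacent peaks scored from 88.8 to 851, with a median of 282, and 0 of the 20 scored above 1000. Since 7.38% of all peaks compared scored above 1000, a count of 0 in 20 is near that share and says nothing particular of these peaks.

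The highest, chr4:17090201-17091660 (score 3218, 1460 bp), had a peak of score 164 only 416 bp downstream and none closer than 18.0 kb upstream. It was also the left border of the longest stretch without an outlying high-score peak on any autosome, 13.7 Mb that end at the next one at 30755739. That stretch held 96 other peaks. It was picked for holding no outlying high-score peak, so only clustered peaks could score above 1000 in it, and 0 did. Nothing is read from that count.

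Chromosome 15 held the next 2. The peak at chr15:81055414-81058213 (3209, 2800 bp) stood 42.0 kb and 18.7 kb from its neighbours, with 34 peaks between 50 and 500 kb away. The peak at chr15:37418011-37419635 (3198, 1625 bp) stood 25.4 kb and 74.1 kb from its neighbours. This second peak had 29 peaks between 50 and 500 kb away. Across all outlying high-score peaks that number had a median of 24 and an interquartile range of 16 to 33.

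By contrast, chr5:111633053-111635672 (3189, 2620 bp) and chr14:10290085-10293105 (3187, 3021 bp) belonged to chains of 4, with nearest neighbours 834 bp and 3.81 kb away that scored 189 and 109. The peak at chr14:47148331-47149725 (3154, 1395 bp), also in a chain of 4, had a neighbour of score 467 at 226 bp. The peak at chr4:91837878-91839490 (3175, 1613 bp) had a neighbour of score 88.8 at 1.03 kb. In each of these 4 cases the nearest peak scored under 500. Beside all outlying high-score peaks, adjacent scores had an upper quartile of 499 at gaps up to 1 kb and 568 at 1 to 5 kb. Scores under 500 are therefore nothing particular to these 4.

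The last 3 stood alone. At chr2:14233676-14235295 (3185, 1620 bp) the neighbours were 66.7 kb and 23.1 kb away, and at chr1:64872299-64874155 (3165, 1857 bp) they were 15.8 kb and 16.1 kb away. The peak at chr9:34086563-34088416 (3154, 1854 bp) was the most solitary of the 10. Its neighbours lay 73.9 kb and 67.6 kb away and scored 132 and 212, and 11 peaks lay between 50 and 500 kb from it.

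Most outlying high-score peaks had company. No other peak lay within 12.5 kb of 900 of them, or 35.1% (33.3% to 37.0%), while 758 were in chains of 2, 537 in chains of 3 and 370 in chains of 4. Among the 36114 other peaks outside clusters, 43.4% (42.9% to 43.9%) had no peak within 12.5 kb. Another peak within 1 kb was listed for 15.4% (14.02% to 16.8%) of the outlying high-score peaks, and for 11.5% (11.2% to 11.8%) of the other peaks outside clusters. Distances over 100 kb to any peak were found for 42 outlying high-score peaks, or 1.64% (1.21% to 2.21%), against 3.62% (3.44% to 3.82%) of the others. Score and spacing both entered the rule, so these shares describe the choice and nothing is read from their difference.

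The share of peaks that scored above 1000 went up with chain size on both sides of the limit of 5. It was 5.43% (5.09% to 5.78%) for peaks alone, 6.81% (6.35% to 7.29%) in chains of 2, 8.10% (7.46% to 8.78%) in chains of 3 and 8.53% (7.74% to 9.40%) in chains of 4. Chains of 5 had 9.14% (8.09% to 10.3%), whose interval overlaps that of chains of 4. The limit that separates outlying from clustered peaks therefore did not fall at a visible break in this share.

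**Figure D2:**
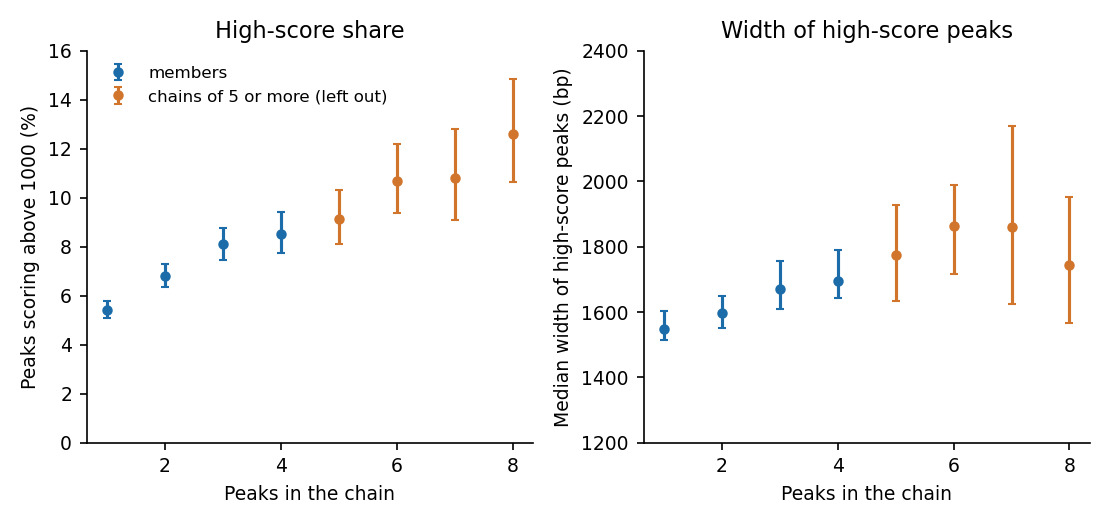
Left, the share of peaks scoring above 1000 (percent, Wilson 95% intervals) and right, the median width of the peaks above 1000 (bp, 95% order-statistics intervals), against the number of peaks in the chain; blue is outside clusters and orange is in clusters. The share goes from 5.43% for peaks alone to 8.53% in chains of 4, and the median width from 1548 to 1697 bp.

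Small chains were described by how many strong sites they held. The outlying peaks fell into 2422 chains, of which 900 were single peaks, 1381 were chains of 2 to 4 with exactly 1 high-score peak and 141 held more than 1. Peaks above 1000 were 6.63% of all peaks outside clusters, so a chain with only 1 is no feature of these sites. In the 720 chains of 2 that held an outlying high-score peak, the median score of the weaker peak was 215 (196 to 238), which was 15.1% of its partner's at the median, and 341 weaker peaks, or 47.4%, scored under 200. The second strongest peak had a median score of 401 (366 to 444) in the 486 chains of 3 and 538 (482 to 591) in the 316 chains of 4. A second strongest of more peaks is higher by construction, so these medians are not compared. The companions under 1000 had a median score of 200 (184 to 220) in chains of 2, 220 (202 to 238) in chains of 3 and 208 (196 to 226) in chains of 4, with overlapping intervals.

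The strongest peak held no fixed place in its chain. In chains of 3 it was the first by coordinate in 173, the middle in 149 and the last in 164. In chains of 4 it was at the outer places in 84 and 64 and at the inner places in 83 and 85.

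Chains with several strong sites were few. Both peaks were above 1000 in 38 chains of 2, with median scores of 1899 for the stronger and 1243 for the weaker and a median gap of 3.25 kb. Only 2 chains outside clusters held 3 high-score peaks, named here after their values were seen. The first lay on chromosome 1, with chr1:6268732-6271203 at a score of 3100, chr1:6277250-6278891 at 1131 and chr1:6279309-6280587 at 1991, the last pair 417 bp apart. The other lay on chromosome 13, with chr13:5824615-5826272 at 1416, chr13:5835960-5837391 at 1060 and chr13:5843350-5845219 at 1238.

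Some strong peaks almost touched. The closest pair, picked after the values were seen, was chr3:54899482-54900769 (score 1332) and chr3:54900788-54903785 (score 2096), with 18 bp between them. Next came chr15:6004649-6006337 (1307) and chr15:6006402-6010962 (3086), 64 bp apart, and chr15:96711681-96713444 (1115) and chr15:96713551-96714974 (1081), 106 bp apart. The second peak of the chromosome 15 pair at 64 bp was 4561 bp wide. With peaks within 1000 bp joined before the rule was applied, an alternative added after seeing the data, 2768 peaks met it, because joining also shortened some clusters to under 5.

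The peaks next to outlying high-score peaks were described by their own scores. At gaps of 1 to 5 kb the adjacent peak had a median score of 255 (231 to 281, n = 814), against 226 (216 to 235) beside peaks of score 300 to 1000, 209 (200 to 217) beside those of 150 to 300 and 214 (206 to 222) beside those of 80 to 150. The adjacent peak was itself above 1000 in 11.3% (9.31% to 13.7%) of cases at that gap, against 6.89% (6.10% to 7.78%) beside the weakest class 8.79% (7.85% to 9.83%) beside peaks of 300 to 1000 and a background of 7.38% over all peaks. The interval beside outlying peaks is clear of the 2 lower classes and overlaps narrowly with that of 300 to 1000, for the median as for the share. Neighbours on both sides of each peak were counted, so 2 adjacent peaks of the same class each counted the other. Such cases are not separate, and all these intervals are narrower than a count of separate pairs would give. At gaps over 50 kb the adjacent peak's median score was 176 (167 to 190) beside outlying high-score peaks and 176 (172 to 180) beside the weakest class. At gaps up to 1 kb the median was 245 (214 to 275) beside outlying high-score peaks and 210 (198 to 225) beside the weakest class, and at 5 to 12.5 kb it was 220 (204 to 237) and 199 (192 to 207). At both of these gaps the interval beside outlying peaks overlaps those of all 3 lower classes, and the share above 1000 at 5 to 12.5 kb, 8.68% (6.93% to 10.8%), does too. Only at 1 to 5 kb, of the 5 classes of gap, was the interval of the median beside outlying peaks clear of the 2 lowest classes. Adjacent peaks come from the same library, and this pattern has no replicate.

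**Figure D3:**
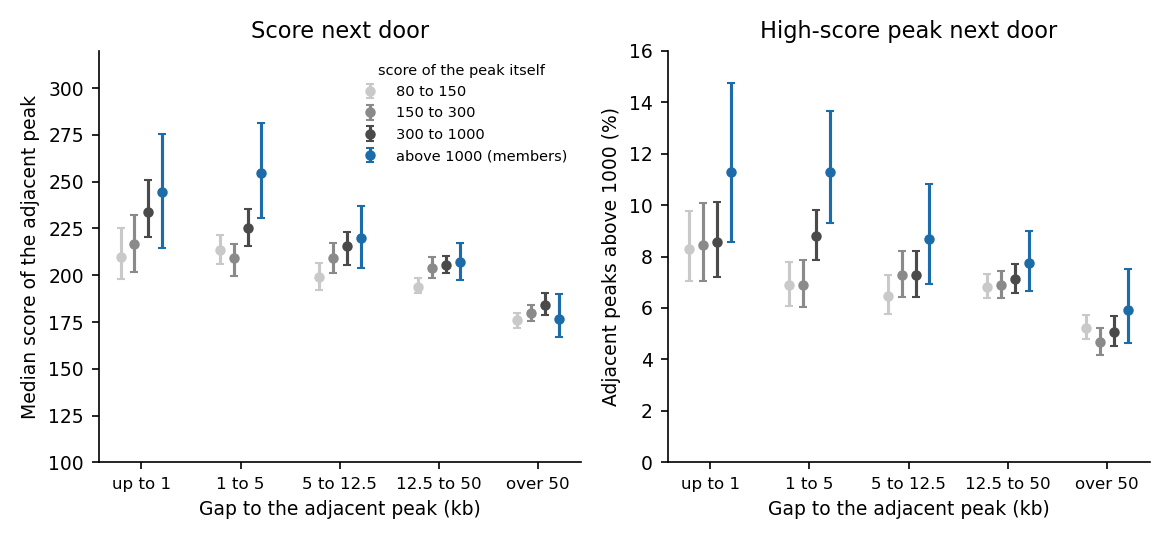
Left, the median score of the adjacent peak (95% order-statistics intervals) and right, the percent of adjacent peaks above 1000 (Wilson 95% intervals), by the gap in kb, for peaks outside clusters in 4 classes of their own score; blue is the outlying high-score peaks. At 1 to 5 kb the blue median of 255 is above the 214 of the weakest class, and over 50 kb both are 176.

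The wider surroundings differed little. At 50 to 500 kb from an outlying high-score peak the median number of peaks was 24 (24 to 25), against 23 (23 to 23) for the other peaks outside clusters and 30 (30 to 32) for the clustered high-score peaks. The 900 peaks alone had 22 (21 to 23) and those in chains of 4 had 26 (25 to 28). In ratio to the median of their own chromosome, outlying high-score peaks were at 1 (0.97 to 1.03) and clustered ones at 1.25 (1.19 to 1.28). The other clustered peaks, at scores up to 1000, had 29 (28 to 29) and a ratio of 1.17, close to the clustered high-score peaks. Clusters were defined by spacing, so the higher numbers around clustered peaks of either kind go with the rule and nothing is read from them.

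Width was not part of the rule, though it goes with the score, which was. The outlying high-score peaks had a median width of 1613 bp (1587 to 1642 bp; interquartile range 1343 to 2090 bp), the other peaks outside clusters 1046 bp (1043 to 1049 bp) and the clustered high-score peaks 1846 bp (1775 to 1909 bp). Across the 2565 outlying peaks, which share 1 library, Spearman's rho between score and width was 0.27. Widths over 3000 bp were found in 167 of them, or 6.51% (5.62% to 7.53%), and in 12.9% (10.8% to 15.2%) of the clustered high-score peaks.

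Clustered peaks had wider medians than outlying ones in each score class under 3100. Peaks scoring up to 1000 went the same way, with 1133.5 bp (1126 to 1141 bp) in clusters and 1046 bp (1043 to 1049 bp) outside. The order is therefore not particular to high-score peaks. At scores of 1000 to 1250 the median was 1469 bp (1442 to 1509 bp, n = 909) outside clusters and 1615 bp (1534 to 1750 bp, n = 296) in them. At 1500 to 2000 it was 1676 bp (1608 to 1734 bp, n = 585) and 1914 bp (1754 to 1994 bp, n = 208). At 1250 to 1500, 2000 to 2500 and 2500 to 3100 clustered medians were also the higher, at 1837 against 1592 bp, 1988 against 1779 bp and 2226 against 1937 bp, with overlapping intervals. At exactly 3100 the order was the other way, with 2598 bp (n = 35) against 2687 bp (n = 62), again with overlapping intervals. Above 3100 the medians were 1595 bp (n = 6) and 1803 bp (n = 16). The interval of those 6 clustered peaks spans their full range, 1295 to 4109 bp, so no order is read there.

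**Figure D4:**
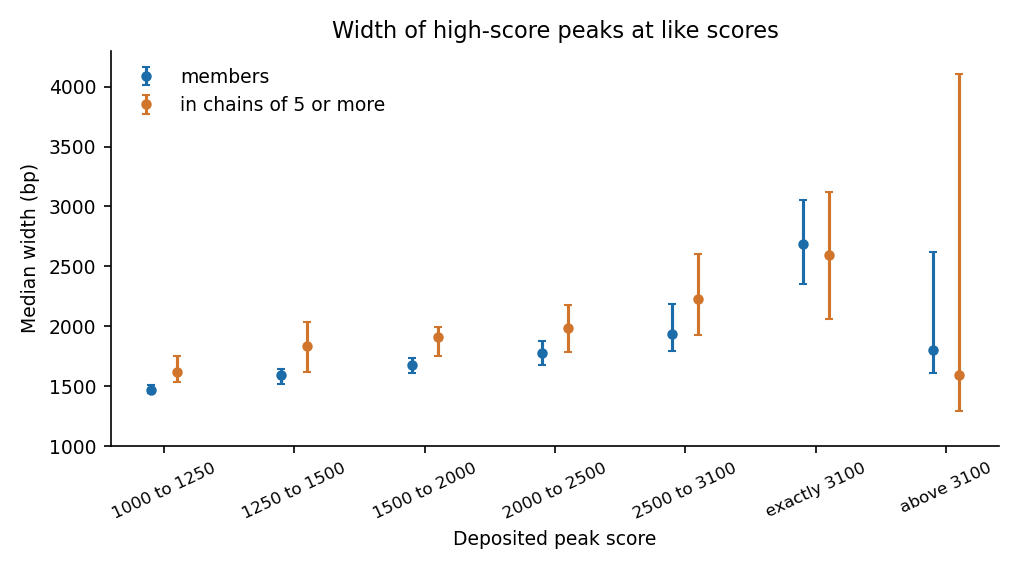
Median width in bp (95% order-statistics intervals) of outlying (blue) and clustered (orange) high-score peaks in classes of the deposited score. Clustered medians are higher in the 5 classes under 3100, for example 1615 against 1469 bp at 1000 to 1250.

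Among outlying peaks, those in larger chains were wider, from a median of 1548 bp (1516 to 1602 bp) alone to 1597 bp (1552 to 1650 bp) in chains of 2, 1670 bp (1610 to 1756 bp) in chains of 3 and 1697 bp (1642 to 1790 bp) in chains of 4. The intervals of the first and the last do not overlap, and those of neighbouring sizes do. The median scores of these sizes ran from 1366 to 1407 with overlapping intervals. A very close neighbour did not go with narrow peaks: the 235 peaks with another within 500 bp had a median width of 1642 bp (1521 to 1790 bp). The other peaks outside clusters were also narrowest with no peak within 12.5 kb, at 1014 bp (1009 to 1018 bp). They had 1064 bp (1057 to 1069 bp) with the nearest at 5 to 12.5 kb and 1086 bp (1071 to 1098 bp) within 500 bp. Greater width in company is therefore not particular to outlying high-score peaks.

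The 3 widest were chr4:98824432-98831403 at 6972 bp (score 2242), chr16:92823228-92829508 at 6281 bp (score 2111), which had no peak within 18 kb, and chr10:92733684-92739688 at 6005 bp (score 1613), with a peak of score 1971 at 10.2 kb. The 3 narrowest all stood alone, as did 35.1% of all outlying high-score peaks, and nothing is read from 3 picked peaks. They were chr15:18057549-18058151 at 603 bp (score 1278), chr9:63268690-63269548 at 859 bp (score 1580) and chr18:12134928-12135789 at 862 bp (score 1164).

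Across chromosomes, outlying high-score peaks were densest on chromosome 15, with 202 of them and 2.02 per Mb between its first and last peak, against an autosome median of 1.01 per Mb. Chromosome 16 followed with 1.42, and chromosome 12 was the sparsest autosome at 0.74. On X there were 35, or 0.22 per Mb. As a share of each chromosome's peaks, they were 7.26% (6.35% to 8.28%) on chromosome 15 and 3.87% (2.79% to 5.33%) on X, against 5.46% over all. The share was 6.16% (5.23% to 7.25%) on chromosome 16 and 4.82% (3.93% to 5.91%) on chromosome 12, and both intervals hold 5.46%. The number of all peaks per Mb was not computed beside these densities.

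The split of strong sites between clusters and the rest also differed by chromosome. Clusters held 34.5% (26.5% to 43.5%) of the high-score peaks on chromosome 17 and 33.6% (28.5% to 39.0%) on chromosome 15. They held only 13.2% (8.03% to 21.0%) on chromosome 14, 12.4% (7.38% to 20.04%) on chromosome 18 and 12.5% (5.46% to 26.1%) on X, against an autosome median of 25.6%. Chromosome 18 also had the highest autosomal share of outlying peaks that stood alone, 43.5% (33.8% to 53.7%), against 29.5% (23.1% to 36.9%) on chromosome 2. These intervals overlap, and the extremes were picked out of 20 chromosomes. The shares of all peaks that lay in clusters or stood alone were not computed by chromosome. Both splits are therefore a description, and nothing particular to high-score peaks is read from them. Median widths of outlying peaks were highest on chromosomes 11 and 15, at 1891 bp (1774 to 2001 bp) and 1848 bp (1748 to 2006 bp), and lowest on X, at 1304 bp (1183 to 1413 bp, n = 35). These too are extremes of 20 chromosomes. Widths of all peaks were not computed by chromosome, so nothing particular to high-score peaks is read from them.

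**Figure D5:**
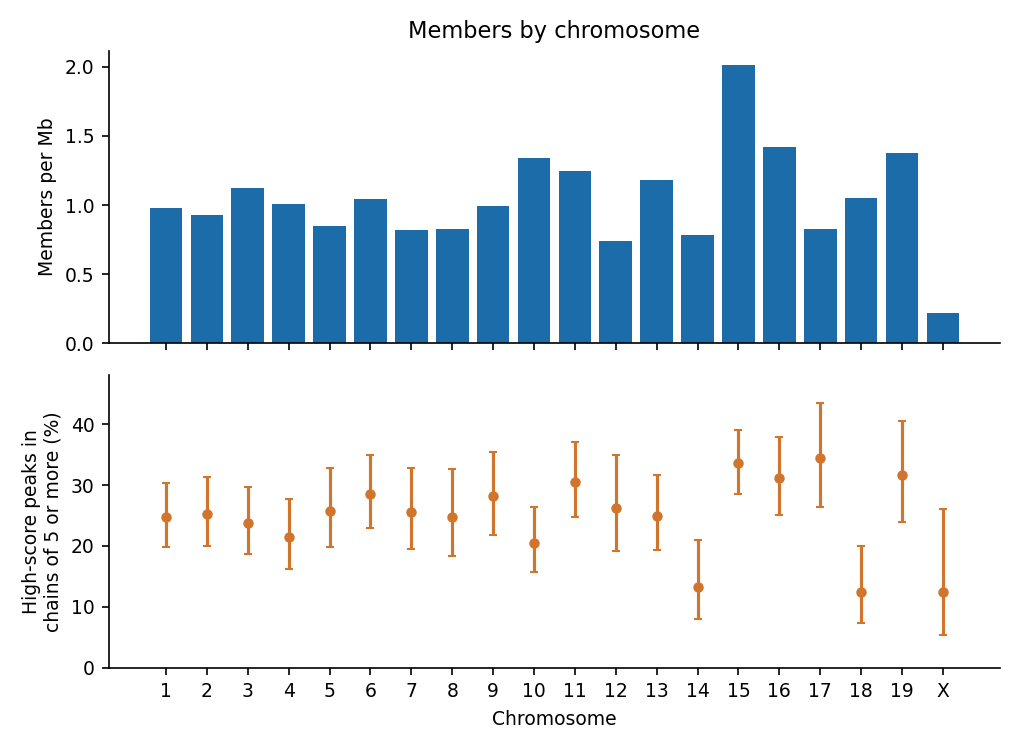
Top, outlying high-score peaks per Mb between the first and last peak of each chromosome, and bottom, the percent of all peaks above 1000 that lie in clusters, with Wilson 95% intervals. Chromosome 15 stands highest in the top panel at 2.02 per Mb, and chromosomes 14, 18 and X lie lowest in the bottom one. The same values for all peaks are not shown.

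Spacing along chromosomes was described for the outlying high-score peaks alone. The same values were not computed for all peaks, so no unevenness particular to these peaks is read from them. The median gap from one to the next was 434 kb (interquartile range 128 to 1186 kb), and 547 of 2545 gaps, or 21.5%, were at most 100 kb. Of the 2350 bins of 1 Mb that held any peak, 1040, or 44.3%, had 0 outlying high-score peaks, 615 had 1, 375 had 2 and 57 had 5 or more. The longest stretches without one were on X, with 21.1 Mb from 109369865 to 130445815 that held 22 other peaks, and 18.0 Mb from 35943605 to 53956723 that held 105.

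The bin with the most was chr15:42000001-43000000, chosen after its count was seen, with 11 outlying high-score peaks among 43 peaks. They fell into 10 chains, which the rule kept under 5 peaks each, and 12 peaks of the bin scored above 1000 when clustered ones are counted. Their scores ran from 1047 to 2729 with a median of 1175. The strongest was chr15:42127305-42129628 (2729, 2324 bp), followed by chr15:42199908-42202363 (1700, 2456 bp) and chr15:42299964-42301445 (1573, 1482 bp). The pair chr15:42337911-42340490 (1098) and chr15:42350933-42352513 (1072) shared a chain with 10.4 kb between them. Next in count came chr15:25000001-26000000 with 9 of 54 peaks and chr18:55000001-56000000 with 9 of 47. Over all peaks compared the share was 5.46%. These bins were picked as the highest counts of 2350 bins, so a share above that is built into the choice and nothing is read from it.

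At the other end, some strong sites had almost no peaks around them. The 5 most isolated were picked after their values were seen. The peak at chr15:46768159-46769659 (score 2248, 1501 bp) had its neighbours 2040 kb and 792 kb away, on the chromosome densest in outlying high-score peaks. The peak at chrX:109368733-109369865 (1335, 1133 bp) bordered the longest stretch on X and had its nearest neighbour 613 kb away. On chromosome 14, chr14:42709240-42710694 (1266) and chr14:9621326-9622759 (1006) had nearest neighbours at 473 kb and 448 kb. The peak at chr3:47877601-47879050 (2073, 1450 bp) had neighbours at 411 kb and 507 kb. Scores above 2000 thus occurred at 2 of these 5 isolated sites, beside 449 of the 2565 outlying peaks at 2000 or more.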

How the data were processed

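TEAD binding was measured by ChIP-seq in 1 library per group. Reads were aligned with Bowtie2 to hg19 and mm9, per the submitters' processing notes. For each cell line the authors deposited 1 list of peaks, with MACS-style names and a score per peak. The score is taken as the negative log10 of p times 10 because the lowest is 80, which matches the limit of 1e-08 in the lists' names. The caller's version, the read filters and the depth were not given in the sources used here.

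Chains, gaps, widths, neighbours and peak counts at 50 to 500 kb (midpoints) were derived in Python 3.11.15 with pandas 2.3.3, scipy 1.17.1 and numpy 2.4.6. Widths were taken from the deposited coordinates, whose starts count from 0, by subtracting start from end. Printed positions are 1-based. Tested on simulated data, the chain rule recovered 517 of 517 peaks to be chosen among 18124, with 0 false. The peaks named by rule were the 10 highest scores other than 3100, the 5 on either side of the score limit and the 3 widest and narrowest; those named after values were seen are so described. The rule and lists were chosen with earlier results of these data known. The planned distances to starts, 13 gene lists and motifs need mm9 sequence or annotation and were not computed.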

Additional observations from a re-analysis of the deposited data

Results flagged for a closer look

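Sequences outside chromosomes 1 to 19 and X were left out by the rule. On Y, random and unplaced sequences, 5 of 85 peaks scored above 1000 outside clusters, or 5.88% (Wilson 95% interval 2.54% to 13.04%). They are listed because no comparison used these sequences and the count passes the 3 that a count of 0 allows. The share is near the 5.46% of peaks on chromosomes 1 to 19 and X that met the same rule, so nothing is read from it. Of these, 2 lay on Y random sequence with scores of 1480 and 2629, 2 on chromosome 1 random sequence with 1553 and 1020, and 1 on unplaced sequence with 1502.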

How the results depend on the processing

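The number of peaks chosen, 2565, became 1034 at scores above 1500, 1600 with gaps up to 25000 bp and 1658 with chains of 3 or more left out, as fewer peaks meet each of these. It stayed within 1.5 times at scores above 800, gaps up to 5000 bp, chains of 10 or more left out, no scores of exactly 3100, and, added after seeing the data, gaps of 12000 or 13000 bp and joining of peaks within 1000 bp. The median width of 1613 bp became 1537 bp at scores above 800, 1774 bp above 1500 and 1787 bp with peaks within 1000 bp joined. The share standing alone, 35.1%, became 57.5% with no other peak within 5000 bp, 16.3% within 25000 bp and 38.6% with peaks joined; these follow from the settings' construction. Alternatives for distances to starts, gene lists and motifs were not run, because mm9 sequence and annotation were not used here. No paired analysis was possible because each group has 1 library. Unknown depth and a single control limit what a score can say of binding strength.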
